A study of Mus musculus with 9 samples.

Results

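The subunits of the respiratory chain and of ATP synthase were followed in liver RNA of 9 male C57BL/6 wild-type mice, 3 from each of 3 groups. HGPP mice ate a methionine- and choline-deficient diet and received polysaccharides of Gynostemma pentaphyllum at 300 mg/kg. MCD mice ate the same deficient diet and were given the vehicle, 0.5% CMC-Na (sodium carboxymethylcellulose), and MCS mice ate a methionine- and choline-sufficient diet with the same vehicle. The mice were bought at 9 weeks of age, had 1 week of adaptation and were fed for 4 weeks, and each library was 1 mouse. The deficient diet is a nutritional model of steatohepatitis, in which the mice also lose weight, and no genetic change was introduced.

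Of the 21936 genes of the table, 98 were taken by name as subunit genes. They were those whose symbol starts with mt-Nd, mt-Co, mt-Cyt or mt-Atp, with Ndufa, Ndufb, Ndufc, Ndufs or Ndufv and a digit, with Uqcr, Cox4 to Cox8 or Atp5, and Sdha to Sdhd. Assembly factors named Ndufaf, pseudogenes and Rik entries were left out. Mitochondrial DNA (mtDNA) encoded 13 of the 98, and the nucleus encoded 85, of which 37 belonged to complex I, 4 to complex II, 8 to complex III, 18 to complex IV and 18 to complex V. An FPKM (a fragment count divided by gene length and library total) of at least 0.1 in 3 or more libraries was reached by all 13 mtDNA genes and by 82 nuclear ones. The 3 that were not tested were Cox7b2, Cox8c and a second gene ID named Atp5o, which was at 0 in every library.

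The respiratory chain sits in the inner membrane of the mitochondrion. Complex I (NADH dehydrogenase) and complex II (succinate dehydrogenase, also an enzyme of the TCA cycle) pass electrons to ubiquinone, complex III passes them on to cytochrome c, and complex IV (cytochrome c oxidase) passes them to oxygen. Complexes I, III and IV pump protons, and complex V (ATP synthase) uses the proton gradient to make ATP. All complexes but complex II combine subunits from both genomes. The mtDNA genes are transcribed together as long precursors from each strand, while each nuclear gene has its own promoter. Hepatocytes are rich in mitochondria and depend on them for fatty acid oxidation, ketone body formation and the urea cycle.

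The libraries held 13355282 to 15691032 fragments in HGPP livers, 11492654 to 16702367 in MCD livers and 14964993 to 18902846 in MCS livers. Hepatocyte markers led in every library, with a summed level of 6 genes of 42814 to 50796 FPKM in HGPP, 27575 to 58920 in MCD and 58691 to 74077 in MCS livers. The 5 macrophage markers summed to 93.9 to 186 FPKM in HGPP, 148 to 905 in MCD and 22.9 to 69.6 in MCS livers. Past the adjusted p, 4 of the 5 were higher in MCD against MCS and all 5 in HGPP against MCS. In HGPP against MCD 0 of the 5 passed. In such bulk samples, fewer cells of a type and less RNA per cell cannot be told apart. Fold changes below are differences of log2(FPKM + 0.1), which understate the change of low genes, with their standard error from limma, and adjusted p-values are Benjamini-Hochberg values over all 13817 genes tested. Values of single livers are given in the order of replicates 1, 2 and 3. Both deficient-diet comparisons against MCS share the MCS livers, and HGPP against MCD shares the MCD livers with one of them.

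Across both genomes, few subunit genes passed the test. In MCD against MCS livers, 6 of the 95 tested subunit genes rose and 2 fell at an adjusted p under 0.05, against 19.6% higher and 2.55% lower of all genes tested (22.1% in either direction). The 6 were mt-Co2, mt-Nd6, mt-Co3, Cox4i2, Cox6a2 and Ndufa11, and the 2 were Uqcrc2 and Sdhd. In HGPP against MCS livers 1 subunit gene, Cox6a2, rose and none fell, against 16.4% and 2.48% of all genes (18.8% in either direction). Neither count against MCS stood above the share among all genes. In HGPP against MCD livers neither limma nor limma-voom on recovered reads called any in either direction, against 0% and 0.0217% of all genes in limma, and 5 were higher and 4 lower at an unadjusted p under 0.05, against 4.0% and 9.69% of all genes. In MCD against MCS 17 were higher and 8 lower at that unadjusted p, against 33.4% and 4.72% of all genes, and in HGPP against MCS 7 were higher and 0 lower, against 31.4% and 4.55%. Groups did not overlap for 10 higher and 2 lower subunit genes in HGPP against MCD (5.83% and 11.3% of all genes), for 18 and 10 in MCD against MCS (38.1% and 5.08%) and for 13 and 0 in HGPP against MCS (36.7% and 4.87%).

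The median log2 fold change differed between the genomes. In MCD against MCS livers it was 1.02 over the 13 mtDNA genes and 0.13 over the 82 nuclear ones, beside 0.40 over all genes. In HGPP against MCD livers it was -0.85 over the mtDNA genes and -0.01 over the nuclear ones, beside -0.07 over all genes, and in HGPP against MCS livers 0.23 and 0.14, beside 0.33. The FPKM scale itself carried a shift between diets, since the median of all genes lay at 0.40 in MCD against MCS. With median-of-ratios scaling, under which that median was 0.03, 2 subunit genes were higher and 14 lower. Over all 13817 genes, 1244 were higher and 1015 lower in that setting, beside 2707 and 353 without it. The nuclear median became -0.28 while the mtDNA median stayed above 0 at 0.60. The direction of the nuclear subunits as a group against MCS therefore depended on the scaling.

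**Figure D1:**
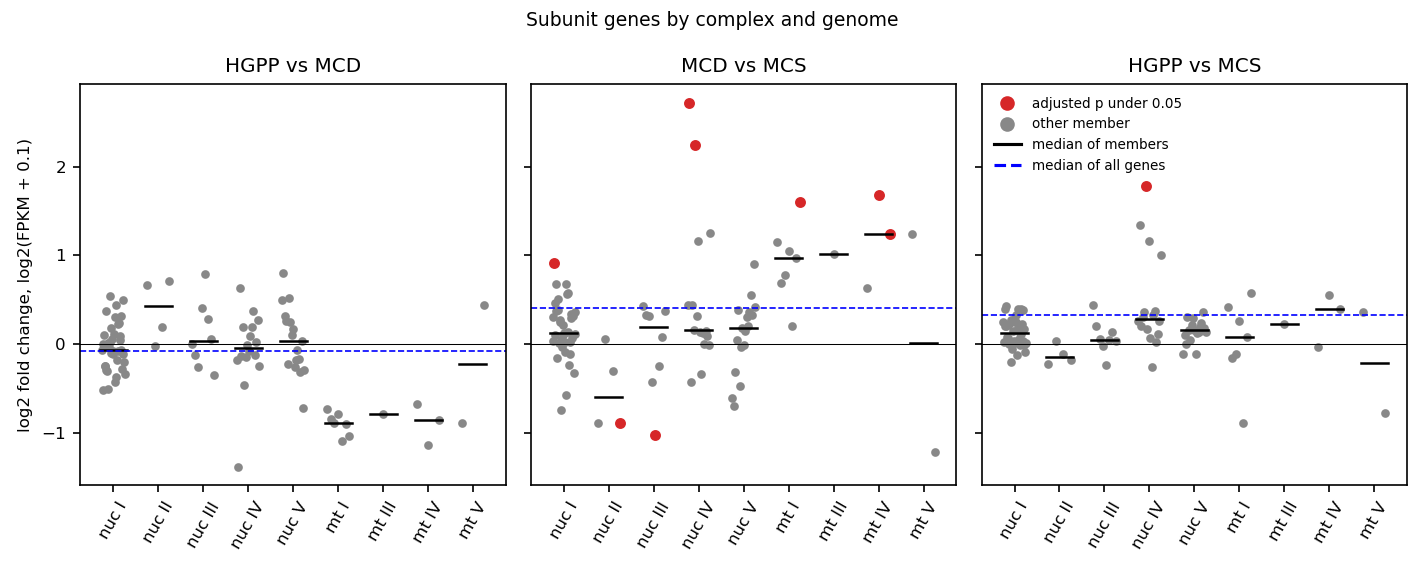
Each point is 1 subunit gene, placed by genome (nuc, nuclear; mt, mtDNA) and complex, with its log2 fold change on the y axis in HGPP against MCD, MCD against MCS and HGPP against MCS livers. Red points had an adjusted p under 0.05, black bars are medians of the members and the dashed line is the median of all 13817 genes. The mtDNA genes of complexes I, III and IV lie below 0 in HGPP against MCD and above 0 in MCD against MCS.

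The mtDNA genes made up a large part of liver mRNA. Their share of all FPKM was 12.6, 13.2 and 11.6% in HGPP livers, 19.5, 13.4 and 31.3% in MCD livers and 8.70, 14.7 and 11.1% in MCS livers. MCD replicates 1 and 3 lay above all other livers, and MCD replicate 2 lay between MCS replicates 3 and 2, so that the groups overlapped. The nuclear subunits took 1.91, 2.24 and 2.09% in HGPP livers, 1.94, 1.91 and 1.78% in MCD livers and 1.79, 1.85 and 1.81% in MCS livers. Every HGPP value was above every MCS value, and the ranges of HGPP and MCD overlapped. The total behind these shares includes the mtDNA genes, so the nuclear share is lowered where mtDNA takes more, as in MCD replicate 3. With each library scaled to its nuclear total instead, the median of the nuclear subunits in MCD against MCS was 0.26, beside 0.13 without that scaling.

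**Figure D2:**
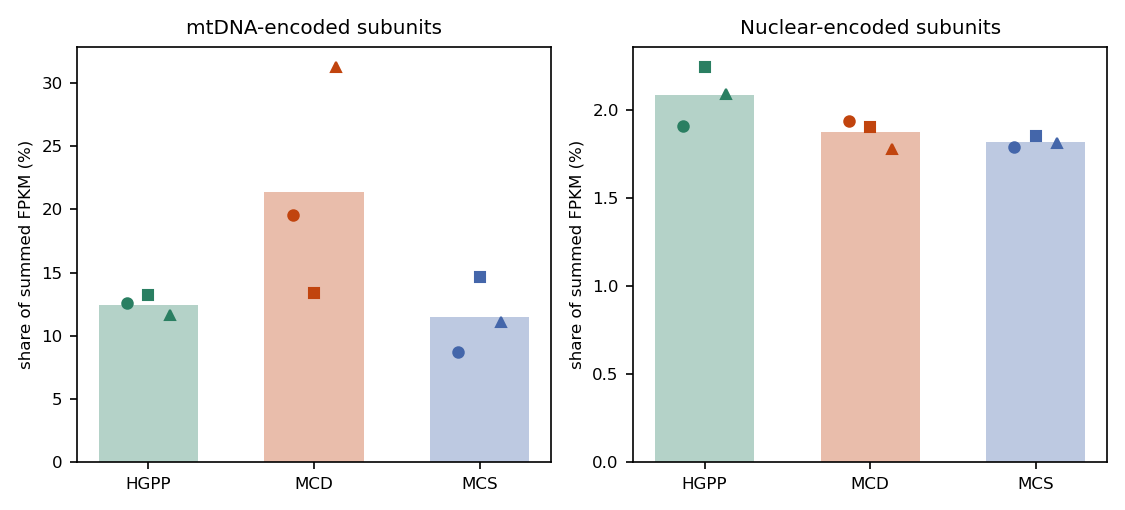
Bars are means of 3 livers and points single livers (circle, square and triangle for replicates 1, 2 and 3), with the share of summed FPKM in percent on each y axis. MCD replicates 1 and 3, at 19.5 and 31.3%, stand above the other livers for the mtDNA genes. The nuclear genes lie between 1.78 and 2.24% in all livers, of a total that includes the mtDNA genes.

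The ratio of summed mtDNA to summed nuclear FPKM was 6.92, 6.09 and 5.84 in HGPP livers, 10.4, 7.35 and 18.2 in MCD livers and 5.13, 8.31 and 6.51 in MCS livers. The HGPP livers lay close together, within the range of MCS, and the MCD livers lay farthest apart. In fragments, which do not weigh genes by length, the mtDNA share was 6.27, 6.94 and 5.86% in HGPP, 10.5, 6.55 and 17.98% in MCD and 4.58, 7.996 and 5.72% in MCS livers, with the same 2 MCD livers on top. The macrophage markers summed to 148, 905 and 572 FPKM in MCD livers and the 3 lymphocyte markers to 3.36, 1.37 and 9.34 FPKM, so that the lymphocyte sum had the same order as the mtDNA share in these 3 livers and the macrophage sum did not. The RNA integrity numbers of these 3 livers ran in the reverse order of the mtDNA share. The part of either cell type in that share was not tested, and that of RNA integrity only through a covariate fit, given below.

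Among the complex I genes of mtDNA, mt-Nd6 (M:13552-14070, GRCm38), the only protein gene read from the other strand, separated the groups most clearly. It had 1627, 1669 and 1672 FPKM in HGPP livers, 3370, 2257 and 5110 FPKM in MCD livers and 848, 1619 and 1001 FPKM in MCS livers. All MCD livers lay above all others, and all HGPP livers above all MCS livers, though by a narrow margin over MCS replicate 2. mt-Nd6 rose in MCD against MCS by 1.61 ± 0.36 (SE, limma adjusted p = 0.0128, n = 3 each). In HGPP against MCD its log2 fold change was -1.03 ± 0.34 (limma adjusted p = 0.261), and in HGPP against MCS it was 0.57 ± 0.25 (limma adjusted p = 0.129).

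Relative to 2 genes of the opposite strand, the sum of mt-Nd1 and mt-Cytb, mt-Nd6 stood at 8.76, 7.80 and 9.11% in HGPP livers, 10.1, 11.2 and 9.46% in MCD livers and 6.37, 7.88 and 6.99% in MCS livers. Each MCD liver, replicate 2 included, was above each HGPP and each MCS liver, while HGPP replicate 2 lay just below MCS replicate 2. This ratio uses genes of 1 genome within each library and does not change with the library's scaling. Whether fragments were counted by strand was not given in the sources used here, so reads of mt-Nd6 and of antisense RNA over it cannot be told apart.

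mt-Nd1, a membrane subunit of complex I, had 6500, 8308 and 7182 FPKM in HGPP livers, 10969, 8205 and 19915 FPKM in MCD livers and 4762, 6984 and 4881 FPKM in MCS livers. The MCD livers were above the MCS livers, and MCD replicate 2 lay within the HGPP range. The log2 fold change was 1.16 ± 0.39 in MCD against MCS (limma adjusted p = 0.0555) and -0.74 ± 0.42 in HGPP against MCD (limma adjusted p = 0.455). mt-Nd2, mt-Nd4 and mt-Nd5, proton-pumping subunits of the membrane arm, had log2 fold changes of 0.69, 1.05 and 0.97 in MCD against MCS and of -0.84, -0.79 and -0.90 in HGPP against MCD, with none past the adjusted p and with overlapping groups.

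The small membrane subunits mt-Nd3 and mt-Nd4l were read at far lower FPKM. mt-Nd3 had 9.90, 12.4 and 13.7 FPKM in HGPP livers, 16.3, 26.2 and 25.4 FPKM in MCD livers and 8.82, 20.8 and 11.5 FPKM in MCS livers. All HGPP livers were below all MCD livers, and MCS overlapped with both. Its difference in HGPP against MCD was -0.89 ± 0.24 (limma adjusted p = 0.215), and it was the only subunit gene to pass in that comparison with 1 liver left out, at -1.11 and an adjusted p of 0.0341 without MCD replicate 1. mt-Nd4l rested on 6 to 28 reads per liver, with a log2 fold change of -1.09 ± 0.42 in HGPP against MCD (limma adjusted p = 0.31) and of 0.20 ± 0.41 in MCD against MCS (limma adjusted p = 0.751). The value against MCS turned negative under 5 alternative settings.

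mt-Cytb, cytochrome b and the only mtDNA subunit of complex III, had 12070, 13084 and 11162 FPKM in HGPP livers, 22331, 11909 and 34119 FPKM in MCD livers and 8540, 13554 and 9450 FPKM in MCS livers. The highest values were those of MCD replicates 1 and 3, and MCD replicate 2 lay among the HGPP and MCS livers. The log2 fold change was 1.02 ± 0.44 in MCD against MCS (limma adjusted p = 0.116) and -0.79 ± 0.46 in HGPP against MCD (limma adjusted p = 0.472).

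In complex IV, mt-Co1 encodes the subunit with the heme and copper center of the oxidase. It had 15576, 16878 and 13927 FPKM in HGPP livers, 21032, 16148 and 43425 FPKM in MCD livers and 10678, 21990 and 16675 FPKM in MCS livers. Only MCD replicate 3 stood above all MCS livers, and the log2 fold change of 0.64 ± 0.46 in MCD against MCS did not pass (limma adjusted p = 0.338).

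mt-Co2, which receives electrons from cytochrome c, had 119, 215 and 131 FPKM in HGPP livers, 507, 139 and 501 FPKM in MCD livers and 104, 134 and 76.6 FPKM in MCS livers. MCD replicate 2 was just above the highest MCS liver and within the HGPP range, and the other 2 MCD livers were far above. mt-Co2 rose in MCD against MCS by 1.68 ± 0.45 (limma adjusted p = 0.0262). mt-Co3, the other core subunit, had 56.2, 86.1 and 41.7 FPKM in HGPP livers, 69.1, 87.9 and 195 FPKM in MCD livers and 41.2, 62.6 and 34.2 FPKM in MCS livers, and rose in MCD against MCS by 1.25 ± 0.37 (limma adjusted p = 0.0374).

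In complex V, mt-Atp6, the subunit of the proton channel, had 58.2, 77.3 and 51.3 FPKM in HGPP livers, 103, 53.1 and 266 FPKM in MCD livers and 44.7, 59.5 and 41.1 FPKM in MCS livers. MCD replicate 2 lay among the MCS livers, and the log2 fold change of 1.25 ± 0.47 in MCD against MCS did not pass (limma adjusted p = 0.0796). mt-Atp8 gave 5 reads in all in HGPP livers, 5 in MCD livers and 41 in MCS livers, of which 38 came from MCS replicate 2, too few to compare.

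**Figure D3:**
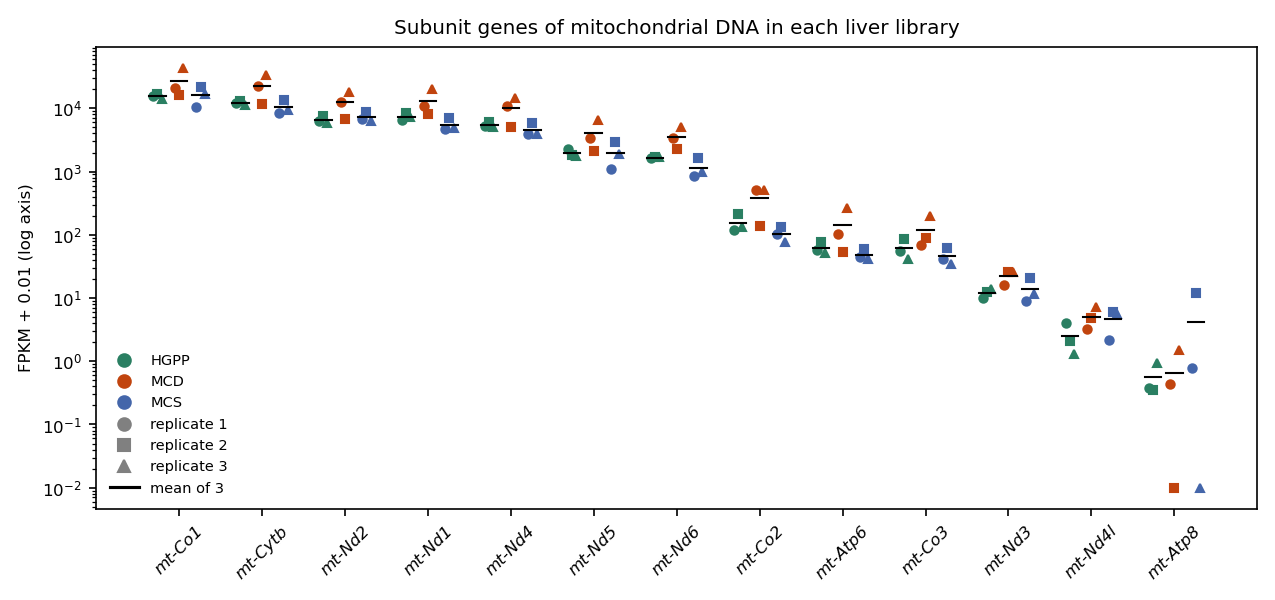
The y axis (log) gives FPKM + 0.01 of the 13 mtDNA genes in each liver, in the order of their listed FPKM, with HGPP, MCD and MCS from left to right for each gene, symbols for replicates and a bar at the mean of 3. MCD replicates 1 and 3 (circle and triangle) lead for mt-Cytb, mt-Nd2, mt-Nd4 and mt-Co2, and MCD replicate 2 (square) lies near the HGPP and MCS livers. mt-Atp8 values at 0.01 are livers with no read.

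Most mtDNA genes were highest in MCD replicates 1 and 3. Without these 2 libraries, a choice made after the values were seen, the median over the mtDNA genes was 0.21 in MCD against MCS and -0.07 in HGPP against MCD, with MCD represented by 1 liver whose spread was taken from the other group. The genes differed in this: the log2 fold change in MCD against MCS was then 1.02 for mt-Nd6, 0.98 for mt-Co3 and 0.44 for mt-Co2 (limma adjusted p = 0.153, 0.129 and 0.376), and mt-Nd3 was highest in MCD replicate 2. None of the 3 calls on mtDNA genes held without MCD replicate 3, without MCS replicate 1 or without MCS replicate 3. Without MCD replicate 3 the log2 fold change was 1.31 for mt-Nd6 (limma adjusted p = 0.0503), 1.38 for mt-Co2 (limma adjusted p = 0.101) and 0.81 for mt-Co3 (limma adjusted p = 0.0986). Without MCS replicates 1 and 3 in turn the limma adjusted p was 0.0668 and 0.0585 for mt-Nd6, 0.0895 and 0.101 for mt-Co2 and 0.124 and 0.133 for mt-Co3. mt-Co2 also missed the threshold without MCD replicate 1 (limma adjusted p = 0.0571), and mt-Co3 without MCD replicate 2 (limma adjusted p = 0.0576). With the RNA integrity number of each library as a covariate, the mtDNA median was 0.13 in MCD against MCS and -0.37 in HGPP against MCD, and the part of RNA integrity in the result was not tested beyond this fit.

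Copies of mtDNA in the nuclear genome limit which mtDNA genes can be read by themselves. Of the 13 transcripts, mt-Nd1, mt-Nd6 and mt-Cytb had no other annotated transcript of at least 95% identity. mt-Co1 and mt-Co2 each had copies in 2 other genes, the longest of full length on chromosome 2, at 97.6 and 95.9% identity. mt-Nd3, mt-Nd4l, mt-Co3 and mt-Atp6 had copies on chromosome 1 of 99.7 to 100% identity over 99.0% or more of their length. Fragments that map equally well to such a pair may have been dropped or split by the counting, so FPKM of these genes cannot be compared between genes. mt-Co2, mt-Co3, mt-Atp6, mt-Nd3 and mt-Nd4l, with copies over 99.0% or more of their length at differing identity, were at low FPKM. mt-Co1, also with full-length copies, was not, and mt-Atp8, also low, had a copy of 21.1% of its length. mt-Nd2, mt-Nd4 and mt-Nd5 had copies over 49.1, 63.6 and 52.3% of their length, with the longest at 96.7, 100 and 95.2% identity, and were not at low FPKM either. Copies outside annotated transcripts were not searched. The 3 genes with no copy found summed to 20198, 23061 and 20016 FPKM in HGPP livers, 36670, 22372 and 59145 FPKM in MCD livers and 14149, 22157 and 15332 FPKM in MCS livers. In that sum MCD replicate 2 lay just above MCS replicate 2 and below HGPP replicate 2.

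The summed FPKM of complex II, with no mtDNA subunit, was lower in MCD than in MCS livers. Its 4 genes summed to 351.5, 335.9 and 394.5 FPKM in HGPP livers, 244.5, 339.3 and 247.0 FPKM in MCD livers and 399.6, 363.9 and 418.6 FPKM in MCS livers. Every MCD liver lay below every MCS liver, and MCD replicate 2 lay within the HGPP range. Sdhd, the most abundant of the 4 genes in MCS livers, was the only 1 to pass in MCD against MCS. Sdhc had 48.4, 48.4 and 32.2 FPKM in MCD livers and 50.9, 53.8 and 51.5 FPKM in MCS livers.

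Sdhd (9:50596357-50603812, minus strand, GRCm38), a membrane anchor of complex II, had 140, 139 and 173 FPKM in HGPP livers, 69.7, 132 and 83.9 FPKM in MCD livers and 184, 143 and 186 FPKM in MCS livers. All MCD livers were below all livers of the other groups, replicate 2 by a small step. Sdhd fell in MCD against MCS, with a difference of -0.89 ± 0.26 in log2 units (limma adjusted p = 0.0351), and its value of 0.71 ± 0.26 in HGPP against MCD did not pass (limma adjusted p = 0.297).

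Sdha, the flavoprotein that oxidizes succinate, had 76.9, 56.5 and 79.8 FPKM in HGPP livers, 30.6, 69.3 and 40.7 FPKM in MCD livers and 76.3, 72.6 and 99.6 FPKM in MCS livers. MCD replicate 2 stayed just under the lowest MCS liver. The log2 fold change was -0.89 ± 0.29 in MCD against MCS (limma adjusted p = 0.0519) and 0.67 ± 0.30 in HGPP against MCD (limma adjusted p = 0.368). The iron-sulfur subunit Sdhb had 87.1, 97.3 and 87.6 FPKM in HGPP livers, 95.9, 89.7 and 90.2 FPKM in MCD livers and 88.9, 94.3 and 81.7 FPKM in MCS livers, and its log2 fold change in MCD against MCS was 0.06 ± 0.18 (limma adjusted p = 0.83). The ratio of Sdha to Sdhb, which does not depend on the library's scaling, was 0.884, 0.581 and 0.911 in HGPP livers, 0.319, 0.772 and 0.451 in MCD livers and 0.859, 0.770 and 1.22 in MCS livers. The lowest ratios were in MCD replicates 1 and 3, and MCD replicate 2 was within the MCS range.

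In complex III, Uqcrc2 (7:120635176-120659524, plus strand, GRCm38), a core protein of the matrix side, had 65.5, 40.1 and 68.2 FPKM in HGPP livers, 32.0, 52.5 and 20.7 FPKM in MCD livers and 63.6, 63.9 and 72.3 FPKM in MCS livers. All MCD livers were below all MCS livers, and HGPP replicate 2 lay inside the MCD range. Uqcrc2 fell in MCD against MCS, with a difference of -1.02 ± 0.30 in log2 units (limma adjusted p = 0.0363), and its difference in HGPP against MCD was 0.79 ± 0.34 (limma adjusted p = 0.359). Its partner core protein Uqcrc1 had 72.7, 73.4 and 78.2 FPKM in HGPP livers, 53.0, 62.8 and 53.7 FPKM in MCD livers and 81.2, 74.0 and 72.0 FPKM in MCS livers. All MCD livers lay below both other groups, with a log2 fold change of -0.42 ± 0.18 against MCS (limma adjusted p = 0.12). The Rieske iron-sulfur protein gene Uqcrfs1 had a difference of -0.24 ± 0.20 in log2 units (limma adjusted p = 0.397).

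Neither fall held in every setting. With each of the 6 livers left out in turn, Sdhd lost its call without any 1 of 5 of them, with an adjusted p of up to 0.12, and passed only without MCD replicate 2, and the same was true of Uqcrc2, with an adjusted p of up to 0.117. Without MCD replicates 1 and 3 together the log2 fold changes were -0.36 for Sdhd and -0.34 for Uqcrc2, and with the RNA integrity number as a covariate they were -0.43 and -0.24 (limma adjusted p = 0.344 and 0.486). The livers with the lowest integrity numbers of the 9 were MCD replicates 1 and 3. Of the 6 hepatocyte markers, Alb (albumin), Ttr and Cps1, the first enzyme of the urea cycle, were lower in every MCD liver than in every MCS liver. Alb had 42491, 22360 and 17604 FPKM in MCD livers, against 44570 to 57774 FPKM in MCS livers. Cps1 had 230, 242 and 119 FPKM, against 375 to 514 FPKM. Apoa1, Serpina1c and Tat overlapped between these groups. The list median was -0.51 in MCD against MCS, with 1 marker lower and 0 higher at a limma adjusted p under 0.05. The part of hepatocyte RNA in the falls of Sdhd and Uqcrc2 was not tested.

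In complex V, Atp5b, the catalytic beta subunit, had 266, 281 and 341 FPKM in HGPP livers, 112, 252 and 173 FPKM in MCD livers and 295, 240 and 293 FPKM in MCS livers. All HGPP livers were above all MCD livers, and MCD replicate 2 overlapped with MCS. The log2 fold change was 0.80 ± 0.30 in HGPP against MCD (limma adjusted p = 0.301) and -0.70 ± 0.29 in MCD against MCS (limma adjusted p = 0.104). The alpha subunit gene Atp5a1 had 261, 210 and 269 FPKM in HGPP livers, 134, 246 and 159 FPKM in MCD livers and 252, 250 and 291 FPKM in MCS livers, and Atp5f1, a subunit of the peripheral stalk, had 81.8, 81.7 and 92.0 FPKM in HGPP livers, 51.0, 78.8 and 51.6 FPKM in MCD livers and 80.5, 80.6 and 86.2 FPKM in MCS livers. For both, MCD replicates 1 and 3 were the lowest of the 9 livers and MCD replicate 2 lay just under the MCS livers. In HGPP against MCD the log2 fold changes were 0.50 ± 0.26 for Atp5a1 and 0.52 ± 0.22 for Atp5f1 (limma adjusted p = 0.43 and 0.351), and neither passed in any of the 3 comparisons.

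In the other direction within complex V, Atp5o, which joins the stalk to the catalytic head, had 1.06, 2.42 and 1.68 FPKM in HGPP livers, 2.25, 2.22 and 4.18 FPKM in MCD livers and 1.29, 1.62 and 1.39 FPKM in MCS livers. The MCD livers lay above the MCS livers, with a difference of 0.90 ± 0.30 in log2 units (limma adjusted p = 0.0576). 2 gene IDs of overlapping position carry this symbol and 76.7% of its transcript has a near-identical copy elsewhere, so its FPKM may miss fragments. The 3 genes for the ring subunit c, Atp5g1, Atp5g2 and Atp5g3, encode the same mature protein. Atp5g3 made up 65.1, 62.4 and 61.3% of their summed FPKM in HGPP livers, 55.3, 66.0 and 66.3% in MCD livers and 61.3, 65.1 and 67.3% in MCS livers, with overlapping groups.

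**Figure D4:**
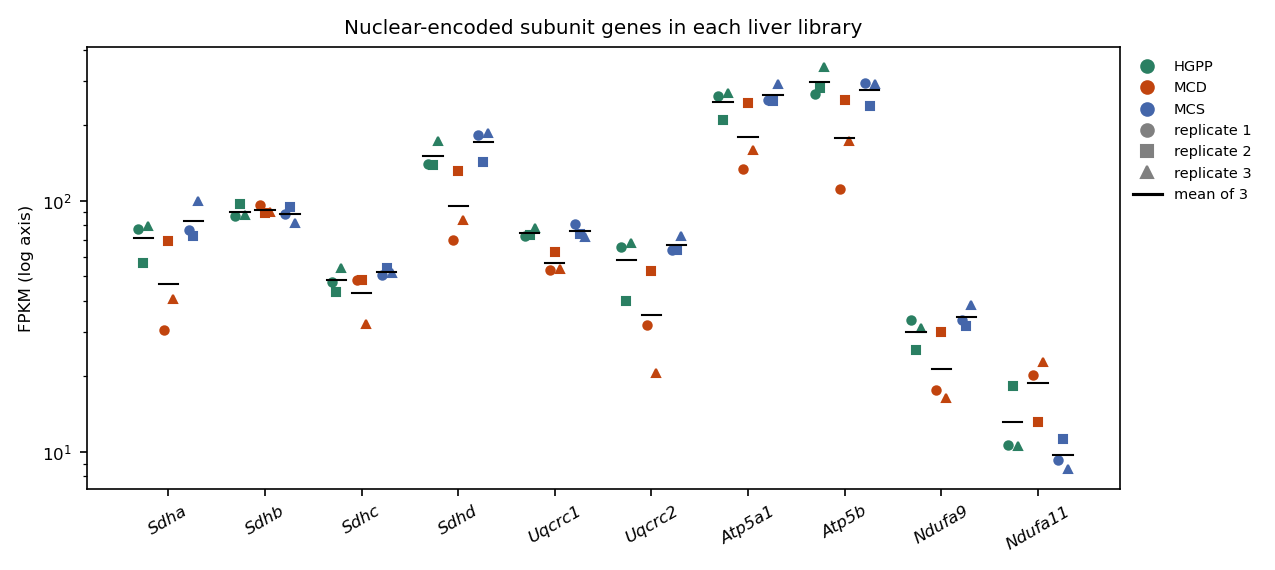
The y axis (log) gives FPKM of 10 nuclear subunit genes of complexes II, III, V and I in each liver, with HGPP, MCD and MCS from left to right for each gene, symbols for replicates and a bar at the mean of 3. MCD replicates 1 and 3 are the lowest livers for Sdhd, Atp5b and Atp5a1 (69.7 and 83.9 FPKM for Sdhd), Sdhb is level in all livers and Ndufa11 is highest in MCD replicate 3 at 22.9 FPKM.

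In complex I, the largest complex, 1 of the 37 nuclear genes passed. Ndufa11 (17:56717767-56722141, plus strand, GRCm38), an accessory subunit of the membrane arm, had 10.7, 18.4 and 10.6 FPKM in HGPP livers, 20.3, 13.2 and 22.9 FPKM in MCD livers and 9.30, 11.3 and 8.57 FPKM in MCS livers. All MCD livers lay above all MCS livers, and HGPP replicate 2 was within the MCD range. Ndufa11 rose in MCD against MCS by 0.92 ± 0.25 (limma adjusted p = 0.0271). Under median-of-ratios scaling the value was 0.51 (limma adjusted p = 0.238), and it missed the threshold without MCD replicate 1 or 3 or MCS replicate 1 or 3 (limma adjusted p = 0.0521, 0.0954, 0.087 and 0.105).

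Other accessory subunits of complex I had values on both sides of 0 in MCD against MCS, none past the adjusted p. Ndufa2, Ndufb7 and Ndufc1 had log2 fold changes of 0.67 ± 0.22, 0.67 ± 0.27 and 0.57 ± 0.20 (limma adjusted p = 0.0521, 0.1 and 0.0684). Ndufa9, which sits where the arms of the complex join, had 33.7, 25.5 and 31.3 FPKM in HGPP livers, 17.7, 30.1 and 16.4 FPKM in MCD livers and 33.6, 31.7 and 38.3 FPKM in MCS livers, with a difference of -0.74 ± 0.25 in log2 units (limma adjusted p = 0.0592). For Ndufa9 all MCD livers were below all MCS livers, replicate 2 only just. Ndufb8 followed the same order with a difference of -0.57 ± 0.21 in log2 units (limma adjusted p = 0.0809).

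The core subunits of the matrix arm that take up electrons from NADH showed no call. Ndufv1, the flavin-bearing subunit, had 60.5, 61.6 and 63.9 FPKM in HGPP livers, 32.3, 56.4 and 46.5 FPKM in MCD livers and 57.8, 50.9 and 57.0 FPKM in MCS livers. The HGPP livers lay above all others, with a log2 fold change of 0.50 ± 0.23 against MCD (limma adjusted p = 0.379) and of 0.17 ± 0.13 against MCS (limma adjusted p = 0.359). Ndufs1, the largest iron-sulfur subunit, had a log2 fold change of 0.23 ± 0.22 in HGPP against MCD and of -0.24 ± 0.22 in MCD against MCS (limma adjusted p = 0.666 and 0.45). In HGPP against MCS, Ndufs4, Ndufs6 and Ndufc1, all accessory subunits, had log2 fold changes of 0.39 ± 0.15, 0.39 ± 0.16 and 0.39 ± 0.16 (limma adjusted p = 0.0912, 0.123 and 0.11). A near-identical copy covers 61.3% of the Ndufs6 transcript. A value that misses the threshold does not show equal levels.

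Complex IV has several subunits with a second gene used in muscle, lung or testis, and the 2 subunit genes with the greatest fold changes were of this kind. Cox6a2, the heart and skeletal muscle form of subunit VIa, gave 17, 13 and 8 reads in HGPP livers, 12, 23 and 15 reads in MCD livers and 2, 3 and 5 reads in MCS livers. These were 1.87, 1.31 and 0.75 FPKM in HGPP livers, 1.54, 2.03 and 1.68 FPKM in MCD livers and 0.156, 0.282 and 0.491 FPKM in MCS livers. Every liver on the deficient diet, with or without HGPP, was above every MCS liver. Cox6a2 rose by 1.78 ± 0.40 in HGPP against MCS (limma adjusted p = 0.019) and by 2.25 ± 0.36 in MCD against MCS (limma adjusted p = 0.00369). The HGPP call was lost without HGPP replicate 1 or 2 or MCS replicate 2 (limma adjusted p = 0.054, 0.0723 and 0.0585) and with limma-voom on recovered reads (limma adjusted p = 0.067), whereas the MCD call held in every alternative run. The liver form Cox6a1 had 630, 799 and 708 FPKM in HGPP livers, 663, 584 and 615 FPKM in MCD livers and 577, 610 and 481 FPKM in MCS livers, and Cox6a2 made up at most 0.346% of the summed FPKM of both forms in any liver.

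Cox4i2, the form of subunit IV known from lung and low oxygen, gave 0, 8 and 3 reads in HGPP livers, 4, 12 and 8 reads in MCD livers and 1, 0 and 0 reads in MCS livers. All MCD livers had more than any MCS liver, and the HGPP livers overlapped with MCS. Cox4i2 rose in MCD against MCS by 2.72 ± 0.39 (limma adjusted p = 0.00257). It reached 0.1 FPKM in all 3 MCD livers and no MCS liver, so it passed the filter only through the deficient diet, where it is high, and had to differ. Scaled to depth, its 24 reads in MCD against 1 in MCS gave a ratio of 28.8 with an exact 95% interval of 4.69 to 1182, which covers counting error only. The general form Cox4i1 had 176, 257 and 183 FPKM in HGPP livers, 259, 197 and 236 FPKM in MCD livers and 173, 178 and 157 FPKM in MCS livers, with a log2 fold change of 0.44 ± 0.20 in MCD against MCS (limma adjusted p = 0.133).

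Cox6b2, a form of subunit VIb known from testis, gave 10, 18 and 30 reads in HGPP livers, 19, 16 and 15 reads in MCD livers and 13, 4 and 9 reads in MCS livers. On the FPKM scale all deficient-diet livers were above all MCS livers, by 1.16 ± 0.40 in HGPP (limma adjusted p = 0.0732) and 1.17 ± 0.38 in MCD (limma adjusted p = 0.0505). Cox8b, a muscle and brown fat form of subunit VIII, gave 2 reads in all in HGPP livers, 3 in MCD livers and 0 in MCS livers, and Cox7b2 gave 5 reads in MCD replicate 3 alone. Cox8c had no read in any liver, which allows up to 3 reads per library. Cox7a1, the muscle form of subunit VIIa, had 27 reads in all in HGPP, 26 in MCD and 39 in MCS livers, with no call.

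Markers of skeletal muscle, brown fat and testis were low or at 0, and lung and heart markers were not read. Of the 4 skeletal muscle markers Ckm was at 0 in all livers, Mylpf was at 0.503 to 1.22 FPKM in every liver, a level like that of Cox6a2, and Tnnt3 reached 0.674 FPKM in MCD replicate 3. The list summed to 0.823 to 1.22 FPKM in HGPP, 0.849 to 1.33 FPKM in MCD and 0.745 to 1.07 FPKM in MCS livers. The brown fat markers Ucp1 and Dio2 summed to 0 in HGPP livers, 0.0299 to 0.131 FPKM in MCD livers and 0 in MCS livers, and the testis markers Tnp1 and Odf1 were at 0 throughout, with Prm1 at 0.185 FPKM in MCS replicate 1 alone. The 5 stellate and mural cell markers summed to 12.3 to 16.5 FPKM in MCS livers. They summed to 20.04 to 33.3 FPKM in HGPP and 20.3 to 45.8 FPKM in MCD livers. In both HGPP and MCD against MCS, 2 of the 5 were past the adjusted p. Cox4i2 was highest in MCD replicate 2, the liver with the highest stellate and mural sum. The macrophage and endothelial sums were also highest in that liver, at 905 and 20.2 FPKM. Cox6a2 was highest there too, but among HGPP livers it was highest in replicate 1, where the stellate and mural sum was lowest. The part of these cell types in the values of Cox4i2 and Cox6a2 was not tested.

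The remaining pairs of forms kept their order. Cox7a2, Cox7b, Cox8a and Cox6b1, the common forms in liver, and Cox7a2l had log2 fold changes between -0.01 and 0.32 in MCD against MCS and none passed. Cox5a, a subunit of the core scaffold, had 26.8, 29.99 and 34.4 FPKM in HGPP livers, 15.2, 29.1 and 16.6 FPKM in MCD livers and 26.1, 24.3 and 28.2 FPKM in MCS livers. The lowest livers were again MCD replicates 1 and 3, with a log2 fold change of 0.63 ± 0.27 in HGPP against MCD (limma adjusted p = 0.344). Ndufa4, known as a complex IV subunit in spite of its name, and its paralog Ndufa4l2, known as a target of hypoxia signaling, had log2 fold changes of -0.16 ± 0.20 and 0.38 ± 0.26 in MCD against MCS (limma adjusted p = 0.582 and 0.3). By their names both were counted with complex I in all counts and sums given here.

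The nuclear subunits are encoded by mRNAs of 360 to 4715 bases, and their fold changes were related to that length. Over the 82 genes, Pearson's r between log2 length and log2 fold change was -0.40 in MCD against MCS, -0.31 in HGPP against MCS and 0.36 in HGPP against MCD (Spearman's rho -0.43, -0.41 and 0.33), against -0.044, -0.051 and 0.0063 over all 13780 nuclear protein-coding genes tested. These are descriptions over genes that share libraries, not tests. The 27 shortest (360 to 659 bases) had a median log2 fold change of 0.31 in MCD against MCS, with 23 above 0. For the 27 longest (1110 to 4715 bases) it was -0.11, with 12 above 0. Over all 13817 genes the median was 0.40, with 10578 above 0, so both medians lay below it. In HGPP against MCD the shortest had a median of -0.01 and the longest 0.24, beside -0.07 over all genes.

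By liver, the median log2 deviation of the 27 shortest from the MCS mean was 0.03, 0.60 and 0.17 in HGPP livers, 0.36, 0.12 and 0.44 in MCD livers and -0.01, 0.11 and -0.07 in MCS livers. HGPP replicate 2 was the highest, above MCD replicates 1 and 3. For the 27 longest it was -0.02, 0.04 and 0.06 in HGPP livers, -0.17, -0.06 and -0.21 in MCD livers and -0.01, -0.01 and -0.05 in MCS livers, and all 3 MCD livers were the lowest. Sdha, Uqcrc2, Atp5a1 and Atp5b were among the 27 longest mRNAs, at 2900, 1896, 2471 and 1916 bases, while Ndufa11 and Ndufa2, at 545 and 572 bases, were among the 27 shortest. Exceptions were the longest 2, Atp5g1 (4715 bases) and Ndufb2 (4371 bases), with log2 fold changes of -0.03 and 0.22 in MCD against MCS, and Cox5a (645 bases), which was lowest in MCD replicates 1 and 3. After a correction of each library's values for mRNA length over all genes, chosen after the values were seen, 2 subunit genes were higher and 16 lower in MCD against MCS. Over all genes 1092 were higher and 1050 lower there. The correction also centred the libraries, since the median of all genes became -0.0092, and median-of-ratios scaling alone gave 2 and 14, so the effect of length on these counts cannot be told apart from that of scaling. The mtDNA median stayed above 0 at 0.59. The part of RNA integrity in this relation was not tested.

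**Figure D5:**
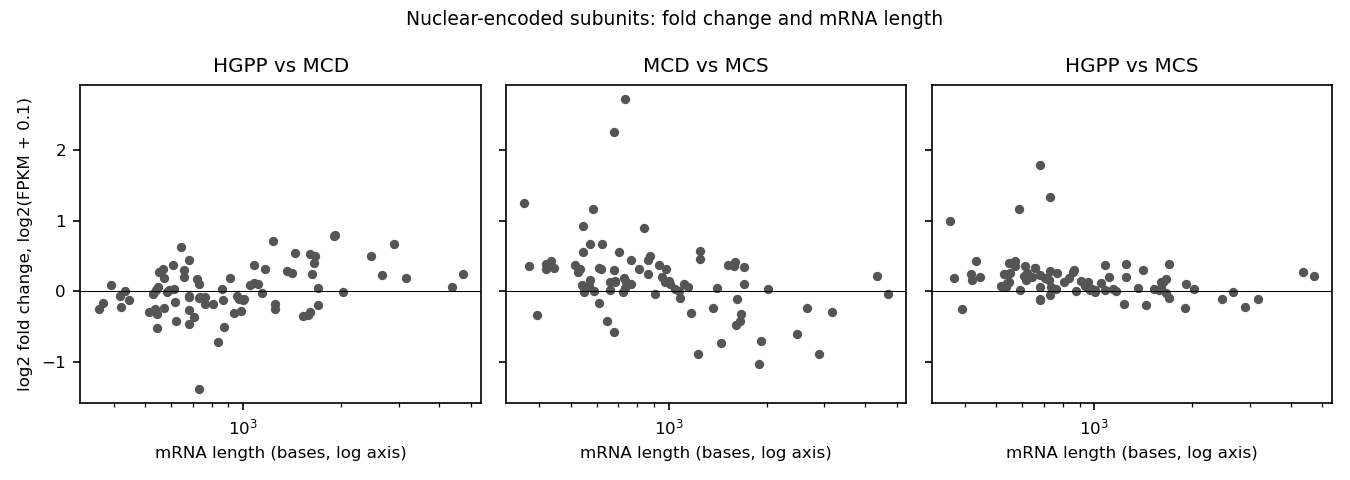
Each point is 1 of the 82 nuclear subunit genes, with mRNA length in bases (log axis) on the x axis and log2 fold change on the y axis, in HGPP against MCD, MCD against MCS and HGPP against MCS livers. In MCD against MCS the genes above 1110 bases reach down to -1.02, whereas most of those below 659 bases lie above 0. The median of all genes tested was 0.40 in that comparison.

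Promoters of nuclear subunit genes are known to be bound by NRF1, by ETS factors of the GABP type and by YY1. Promoter windows from 250 bases before to 30 after the start, from RefSeq (GRCm38.p6), were matched by symbol to 65 of the 82 nuclear subunit genes and to 10832 of all genes tested, and searched on both strands for exact letters. The NRF1 core GCATGCGC was found in 9 of the 65 subunit windows (13.8%) and in 4.87% of all windows, the ETS motif CCGGAAG in 15 (23.1%) and 16.7%, the YY1 motif AAGATGGC in 2 (3.08%) and 3.29%, and the TATA motif TATAAA in 6 (9.23%) and 7.75%. A palindromic NRF1 site of 10 letters counts as overlapping matches of the core on both strands.

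The windows of 3 genes that were lower together in MCD replicates 1 and 3, Sdhd, Sdha and Atp5b, and of Ndufa11, which was higher in the same livers, are shown because these genes carry the opposite directions among the nuclear subunits. They are printed 5′ to 3′ on the strand of the gene, with matches in capitals.
Sdhd: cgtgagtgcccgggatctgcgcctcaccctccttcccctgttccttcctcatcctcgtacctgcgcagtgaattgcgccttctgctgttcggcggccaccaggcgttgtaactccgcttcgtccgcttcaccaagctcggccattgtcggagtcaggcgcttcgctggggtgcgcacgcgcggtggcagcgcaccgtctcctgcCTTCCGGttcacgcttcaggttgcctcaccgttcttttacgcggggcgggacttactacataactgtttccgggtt
Sdha: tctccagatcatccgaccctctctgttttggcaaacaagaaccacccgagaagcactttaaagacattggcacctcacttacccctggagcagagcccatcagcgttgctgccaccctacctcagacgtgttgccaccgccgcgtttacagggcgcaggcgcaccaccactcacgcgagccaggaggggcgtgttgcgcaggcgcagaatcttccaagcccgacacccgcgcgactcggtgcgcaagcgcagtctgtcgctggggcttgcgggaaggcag
Atp5b: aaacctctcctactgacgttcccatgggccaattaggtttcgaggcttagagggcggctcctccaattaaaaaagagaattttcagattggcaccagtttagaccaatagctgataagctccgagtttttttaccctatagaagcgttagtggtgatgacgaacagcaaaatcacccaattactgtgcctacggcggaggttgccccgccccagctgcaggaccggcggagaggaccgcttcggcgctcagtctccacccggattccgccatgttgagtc
Ndufa11: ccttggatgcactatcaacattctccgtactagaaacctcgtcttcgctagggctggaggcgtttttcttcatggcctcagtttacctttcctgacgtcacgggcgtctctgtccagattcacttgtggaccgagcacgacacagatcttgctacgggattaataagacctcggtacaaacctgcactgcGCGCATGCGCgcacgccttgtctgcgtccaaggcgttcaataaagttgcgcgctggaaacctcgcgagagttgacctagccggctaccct
The Sdhd window (9:50603820-50604099, minus strand) held 1 ETS match, on the opposite strand. The Sdha window (13:74350211-74350490, minus strand) and the Atp5b window (10:128083057-128083336, plus strand) held none of the 4 motifs. The Ndufa11 window (17:56717512-56717791, plus strand) held the palindromic NRF1 site. Exact letters miss variant sites, and a window without a match says nothing about the factor.

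The genes that serve the chain were read from lists. Of 45 tested assembly factors, 2 rose in MCD against MCS, 3 rose in HGPP against MCS and none passed in HGPP against MCD, against 19.6%, 16.4% and 0% of all genes higher, so the list stood below the background against MCS. Cox19, a copper-handling factor of complex IV assembly, averaged 19.5 ± 3.55 FPKM in HGPP livers, 15.4 ± 2.60 FPKM in MCD livers and 9.39 ± 0.487 FPKM in MCS livers (SD, n = 3 each), a rise of 1.03 in HGPP against MCS (limma adjusted p = 0.0055) and of 0.70 in MCD against MCS (limma adjusted p = 0.0372). Ttc19, a complex III factor, rose in MCD against MCS by 0.74 (limma adjusted p = 0.0346), and Coa3 and Coa7, 2 complex IV factors, rose in HGPP against MCS by 0.66 and 0.62 (limma adjusted p = 0.0198 and 0.0261).

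Of 28 tested genes of mtDNA transcription, RNA processing and replication, 2 rose in MCD against MCS, 2 others rose in HGPP against MCS and none fell, also below the 19.6% and 16.4% of all genes higher. Fastk, an RNA-binding protein, averaged 17.1 ± 1.19 FPKM in HGPP livers, 22.8 ± 3.95 FPKM in MCD livers and 12.7 ± 2.46 FPKM in MCS livers, a rise of 0.84 in MCD against MCS (limma adjusted p = 0.0267). Its groups did not overlap in any of the 3 comparisons, and its difference of -0.40 in HGPP against MCD did not pass (limma adjusted p = 0.419). Mterf1a, a terminator of mtDNA transcription, rose in MCD against MCS by 1.09 (limma adjusted p = 0.0296). The tRNA processing enzyme Elac2 and Tbrg4, an RNA-binding protein of the Fastk family, rose in HGPP against MCS by 0.73 and 0.69 (limma adjusted p = 0.0146 and 0.0176). Tfam, which packs mtDNA and starts its transcription, averaged 9.53 ± 0.638 FPKM in HGPP, 9.22 ± 1.64 FPKM in MCD and 10.99 ± 0.881 FPKM in MCS livers, with no call. The mitochondrial RNA polymerase gene Polrmt averaged 6.09 ± 0.521 FPKM in HGPP, 7.16 ± 1.55 FPKM in MCD and 5.69 ± 0.381 FPKM in MCS livers, also with no call.

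Among 9 regulators of mitochondrial biogenesis, 1 rose in HGPP against MCS, where 16.4% of all genes were higher, and none passed in the other comparisons. It was Pprc1, a coactivator of the PGC-1 family, with a rise of 0.89 (limma adjusted p = 0.0425). Ppargc1a (PGC-1 alpha) averaged 2.17 ± 0.531 FPKM in HGPP livers, 2.62 ± 1.65 FPKM in MCD livers and 2.76 ± 0.600 FPKM in MCS livers. Among 18 genes of electron carriers, ubiquinone synthesis and the electron transfer flavoprotein, 3 rose and 1 fell in MCD against MCS, and 3 rose and 1 fell in HGPP against MCS. Over all genes 19.6% were higher and 2.55% lower in MCD, and 16.4% and 2.48% in HGPP, against MCS. The count of rises was below that share in MCD and near it in HGPP. Coq7, which adds a hydroxyl group in ubiquinone synthesis, averaged 8.14 ± 1.32 FPKM in HGPP livers, 8.45 ± 1.195 FPKM in MCD livers and 4.10 ± 0.679 FPKM in MCS livers, a rise of 0.97 in HGPP (limma adjusted p = 0.0124) and of 1.03 in MCD (limma adjusted p = 0.0135) against MCS. Coq8a, a kinase-like protein of the same pathway, averaged 11.7 ± 5.81 FPKM in HGPP, 13.8 ± 3.49 FPKM in MCD and 28.8 ± 8.23 FPKM in MCS livers, and fell by 1.38 in HGPP (limma adjusted p = 0.0232) and fell by 1.05 in MCD (limma adjusted p = 0.0198) against MCS. Cyc1 and Cycs, the cytochromes c1 and c, had no call.

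Of 17 TCA cycle genes, 2 rose in HGPP against MCS, where 16.4% of all genes were higher. None passed in MCD against MCS or in HGPP against MCD. Mdh2, mitochondrial malate dehydrogenase, averaged 157 ± 13.7 FPKM in HGPP livers, 110 ± 26.0 FPKM in MCD livers and 91.4 ± 9.29 FPKM in MCS livers, a rise of 0.79 in HGPP against MCS (limma adjusted p = 0.00873), and Idh2 rose by 0.46 (limma adjusted p = 0.0384). The median over the list was 0.25 in HGPP against MCD, with 16 of 17 genes above 0. Over all genes it was -0.07 there, with 5947 of 13817 above 0.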

How the data were processed

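RNA-seq was run on 9 livers, 3 per group. The deposited values are FPKM per Ensembl gene, which the authors computed from their aligned fragments. In the submitters' processing notes, trimming is credited to fastp (0.20.1), alignment to STAR (2.7.7a) and counting to featureCounts (2.0.0). The methods name other tools for trimming and counting, and the genome build and strandedness were not given in the sources used here. Gene lengths fitted GENCODE vM21 (GRCm38), which gave symbols and coordinates. Whole reads were recovered from the FPKM steps: 98.13% of 115876 values of up to 1000 reads lay within 0.02 of a whole number. Intervals on reads cover counting error only.

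Genes at an FPKM of at least 0.1 in 3 of 9 libraries (13817 of 21936) were fitted as log2(FPKM + 0.1), 1 pair of groups at a time, with limma 3.58.1 (trend, R 4.3.3) and Benjamini-Hochberg adjustment over all of them, at a threshold of 0.05. Near-identical copies were searched among annotated transcripts with BLAST+ 2.17.0 at 95% identity. RNA integrity numbers, used as a covariate and for the order of livers, came from the supplement of the study. The code was tested on simulated data. Members and lists were chosen with earlier results of these data known. Genes named were all mtDNA genes, the tissue-specific forms with their partners, core subunits, and up to 6 nuclear genes per comparison and direction by size of fold change among those past the adjusted p, then those at an unadjusted p under 0.05, with a group mean of at least 1 FPKM. Others were chosen after their values were seen. Of the marker lists, the lymphocyte, endothelial and erythroid ones were read only as values.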

Additional observations from a re-analysis of the deposited data

How the results depend on the processing

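The 9 livers limit every count, and replicate numbers name mice only. Same-numbered livers did not deviate together in all pairs (correlations from -0.344 to 0.302), so the numbers do not pair them. With the replicate number as a block, 4 subunit genes were higher and 0 lower in MCD against MCS, beside 1685 and 191 of all genes. The other subunit counts and medians were as without it. In HGPP against MCD no subunit gene was called in the alternatives run, except 1 (mt-Nd3, lower) without MCD replicate 1, where 410 of all genes were lower. In that comparison the nuclear median was 0.11 with RNA integrity as a covariate, 0.14 with a correction for mRNA length and 0.10 without MCD replicates 1 and 3. It was -0.12 to 0.0654 with 1 liver left out. The mtDNA median was -0.37 with the integrity covariate, -0.067 without MCD replicates 1 and 3, and -1.19 to -0.46 with 1 liver left out.

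In MCD against MCS the counts of higher and lower subunit genes are given with those of all genes in brackets. They were 2 and 0 without the filter (1616 and 179 of 17066), and 11 higher with scaling to the nuclear total (3402). Median-of-ratios scaling gave 2 and 14 (1244 and 1015 of 13817), and quantile normalisation gave 3 higher (669). With 1 fit over 9 libraries they were 10 and 5 (3323 and 433), and with array weights 14 and 7 (3596 and 621). There were 0 lower without the variance trend (247), and 2 and 0 with the integrity covariate (421 and 79). After the length correction they were 2 and 16 (1092 and 1050). With 1 liver left out, 2 to 15 were higher (1130 to 3238) and 0 to 9 lower (118 to 423). The nuclear median was 0.26, -0.28, 0.0137, -0.35 and 0.0082 with nuclear total, median-of-ratios, integrity covariate, length correction and without MCD replicates 1 and 3, and 0.10 to 0.21 with 1 liver left out. The mtDNA median was 0.13 with the integrity covariate, 0.21 without MCD replicates 1 and 3, and 0.66 to 1.38 with 1 liver left out.

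In HGPP against MCS the counts of higher subunit genes are given with those of all genes in brackets. The count was 0 without the filter (1396), with quantile normalisation (658) and with limma-voom on recovered reads (2298). After the length correction it was 0 (751), with 1 lower (766). It was 2 with array weights (2812) and 0 to 3 with 1 liver left out (872 to 1718). The nuclear median was -0.21 with median-of-ratios scaling, -0.0019 with quantile normalisation, -0.24 after the length correction and 0.0697 to 0.25 with 1 liver left out, and the mtDNA median -0.12 with median-of-ratios scaling and -0.15 after the length correction, and 0.0941 to 0.47 with 1 liver left out, beside 0.23 with all.

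Signs turned in few cases. Without MCD replicates 1 and 3 the HGPP against MCD value was 0.21 for mt-Atp6, 0.11 for mt-Co2, 0.0205 for mt-Cytb and 0.10 for mt-Nd4, and the MCD against MCS value of mt-Nd2 was -0.095. With the integrity covariate it was -0.10 for mt-Atp6, -0.0785 for mt-Co1 and -0.20 for mt-Nd2. mt-Nd4l was at -0.20 with median-of-ratios scaling, -0.215 with quantile normalisation, -0.55 after the length correction and -0.27 to 0.49 with 1 liver left out. Ndufs6 in HGPP against MCS was at -0.0195 after the length correction. The cause was not tested. Limma-voom, the length correction and the removal of MCD replicates 1 and 3 together were chosen after seeing the data. The call on Cox6a2 in MCD against MCS held in every alternative run, with a limma adjusted p of up to 0.048. That on Cox4i2 held in every alternative that tested it (limma adjusted p of up to 0.0491). With the filter at 1 FPKM it was not tested, since no liver reached that level. Cox4i2 passed the main filter only through the deficient diet and had to differ, so these runs add no support to its call.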

Other observations

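Other mitochondrial lists were read in the same fits. Of 13 tested mitochondrial chaperones and proteases, 3 rose in HGPP against MCS, where 16.4% of all genes were higher. The list median was 0.36 there, beside 0.33 over all genes. None passed in MCD against MCS or in HGPP against MCD. In HGPP against MCD all 13 values were above 0, at a median of 0.37. Over all genes, 5947 of 13817 were above 0 in that comparison and the median was -0.07. Lonp1, the main protease of the matrix, averaged 86.1 ± 2.78 FPKM in HGPP livers, 71.5 ± 34.5 FPKM in MCD livers and 37.5 ± 1.34 FPKM in MCS livers (SD, n = 3 each), and rose in HGPP against MCS with a limma adjusted p of 0.00092. Clpp, the proteolytic subunit of a second matrix protease, and Afg3l2, a protease of the inner membrane, rose by 0.57 and 0.51 (limma adjusted p = 0.0408 and 0.0415).

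Of 77 tested mitochondrial ribosomal protein genes, 12 rose in HGPP against MCS (list median 0.33), 5 rose in MCD against MCS (0.21) and none passed in HGPP against MCD (0.14). Beside 16.4% of all genes higher in HGPP and 19.6% in MCD against MCS, the first count was near the background and the second below it. Mrpl54 averaged 78.1 ± 16.6 FPKM in HGPP livers, 89.5 ± 9.62 FPKM in MCD livers and 36.5 ± 10.98 FPKM in MCS livers, a rise of 1.12 in HGPP (limma adjusted p = 0.0135) and 1.33 in MCD (limma adjusted p = 0.00575) against MCS. Of 83 tested cytosolic ribosomal protein genes, 15 rose in HGPP against MCS (list median 0.54) and 23 rose in MCD against MCS (0.57), while none passed in HGPP against MCD (0.05). Over all genes 16.4% were higher in HGPP and 19.6% in MCD against MCS, and the difference of the list from these shares was not tested. Rpl35 averaged 15.3 ± 5.94 FPKM in HGPP livers, 18.8 ± 1.74 FPKM in MCD livers and 8.45 ± 1.22 FPKM in MCS livers, a rise of 1.15 in MCD against MCS (limma adjusted p = 0.00566). These lists sit on the same shift of all genes against MCS as the nuclear subunits (medians of 0.33 in HGPP and 0.40 in MCD). Cytosolic ribosomal protein genes are known for their many pseudogenes, so their FPKM is uncertain.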
